A study of Rattus norvegicus with 8 samples.

Results

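Cyp2b2, Cyp2b3, Cyp2a1 and Cyp2a2 are neighbouring cytochrome P450 genes of rat liver. They are 4 of 15168 genes named on the array and were followed through every probe that carries their name, 6 of 30367 probes: 2 each for Cyp2b2 and Cyp2b3 and 1 each for Cyp2a1 and Cyp2a2. Of the 6 probes, 5 were bright enough in the liver channel to be tested, among 11406 tested probes in all, and the Cyp2a2 probe was not. The livers came from male Sprague-Dawley rats aged 21 days that had stayed with their own mothers. Control dams were given corn oil. Dams of the group labelled 0.5MAhR, called the mixture group here, received polychlorinated biphenyls, methyl mercury and organochlorine pesticides in corn oil, dosed as a mixture of 0.5 mg/kg/day. They also received compounds that activate the aryl hydrocarbon receptor (AhR), to a total of 6.3 ng/kg/day in dioxin equivalents. The mixture group therefore differed from Control in all these agents at once, and the pups were exposed only through their dams. Each array held pooled liver RNA of 2 pups in the dye Cy5 and a reference RNA from 14 rat cell lines in the dye Cy3, which gave 4 Control arrays (replicates 5 to 8) and 4 mixture arrays (replicates 1 to 4) out of 72 in the study. The labels do not say which pups were litter mates, and p-values measure the spread between these pools.

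P450 enzymes of the CYP2B subfamily oxidise drugs, steroids and many chlorinated compounds in the endoplasmic reticulum of hepatocytes. Rat Cyp2b1 and Cyp2b2 are the classical genes induced by phenobarbital, through the constitutive androstane receptor CAR and its partner RXR, and polychlorinated biphenyls that resemble phenobarbital act on them too. Cyp2b3 is a liver gene of the same subfamily that phenobarbital is not known to induce. The CYP2A enzymes hydroxylate testosterone: Cyp2a1 is higher in the liver of adult females, and Cyp2a2 is typical of the liver of adult males. All these genes lie in 1 cluster on chromosome 1, where Cyp2b2 and Cyp2b3 are adjacent and Cyp2a1 is followed by Cyp2a2 in the RefSeq annotation of assembly GRCr8.

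The start regions of the adjacent genes Cyp2b2 and Cyp2b3 are shown because these neighbours differed in their response. RefSeq promoter windows, from 250 bases before to 50 bases after a gene's start, were found for 3 of the 4 genes, all but Cyp2a2. Each line gives 100 bases 5′ to 3′ on the plus strand of GRCr8, chr1:90722136-90722235 for Cyp2b2 and chr1:90780368-90780467 for Cyp2b3. Capitals mark GCGTG, the core of the sequence to which the AhR binds, and TTGCATAA, a sequence of the type bound by C/EBP factors.
Cyp2b2: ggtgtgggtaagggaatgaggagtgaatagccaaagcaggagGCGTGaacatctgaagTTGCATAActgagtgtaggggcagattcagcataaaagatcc
Cyp2b3: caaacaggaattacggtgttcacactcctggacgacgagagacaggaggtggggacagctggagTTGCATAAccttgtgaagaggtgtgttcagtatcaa
GCGTG stood 103 bases upstream of the Cyp2b2 start and was in neither the Cyp2b3 nor the Cyp2a1 window. It occurred on either strand in 29.7% of 33469 windows of the same length. TTGCATAA stood 87 bases upstream of the Cyp2b2 start and 60 bases upstream of the Cyp2b3 start, and it occurred in 0.86% of all windows. AGGTCA, a hexamer to which nuclear receptors bind, found in 16.18% of windows, was in none of the 3 windows. TATAAA, in 14.22% of windows, was in the Cyp2a1 window only of these 3, 36 bases upstream. None of the motifs overlapped another, and all were chosen after the sequences had been seen. Bases more than 250 upstream of a start were not searched, so a motif missing here may lie further upstream. The Cyp2b2 and Cyp2b3 windows were 73.9% identical over their aligned bases and the Cyp2b2 and Cyp2a1 windows 63.8%. The window of Cyp2b1, which had no named probe here, was 97.2% identical to that of Cyp2b2. Whether the Cyp2b2 probes also captured Cyp2b1 RNA was not tested, and the Cyp2b2 values may hold both.

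All 8 arrays lay on 1 slide in 2 columns, with 2 arrays of each group in each column. Cy5 signals stood well above background in 42.9% to 49.2% of spots, and no spot was saturated. Log2 ratios of tested probes correlated with r of 0.980 to 0.991 between arrays of the same column and 0.936 to 0.961 between columns. Slide column was therefore a term of the model, and results without it are given beside. All 8 hepatocyte markers listed were tested, and albumin (Alb) had a mean log2 ratio of 8.92 in Control. None of 29 tested markers of liver cell types passed the threshold in either direction. Precision is limited by the 4 arrays per group.

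Cyp2b2 rose in the mixture livers on both of its probes. On the brighter probe, A_64_P006590, the log2 ratio of Cy5 over Cy3 was 5.13, 6.02, 4.15 and 5.03 on Control replicates 5 to 8. It was 7.36, 6.55, 7.54 and 7.01 on mixture replicates 1 to 4. The groups did not overlap, with replicate 7 lowest among the controls and replicate 3 highest in the mixture group. The means were 5.08 ± 0.76 (SD, n = 4) and 7.12 ± 0.43 (SD, n = 4), a difference of 2.04 on the log2 scale (SE 0.25, 95% interval 1.47 to 2.60) or 4.10-fold, with an adjusted p of 0.0275 in limma. Net Cy5 signals, background subtracted, were 788, 1677, 482.5 and 1003 intensity units on the Control arrays and 4803, 2661, 8520 and 4995 on the mixture arrays. Within slide columns 1 and 2 the log2 ratio differed by 2.14 and 1.93. In whole liver, more RNA per cell and more cells that hold it cannot be told apart.

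The second Cyp2b2 probe, A_44_P311324, gave log2 ratios of 4.004, 4.54, 3.34 and 4.06 on the Control arrays. On mixture replicates 1 to 4 it gave 5.60, 5.01, 6.07 and 5.31. Again the groups did not overlap, and Control replicate 7 and mixture replicate 3 again were the lowest and the highest array. The difference was 1.51 (SE 0.17, 95% interval 1.12 to 1.89) or 2.84-fold, with an adjusted p of 0.0203 in limma, 1.49 in column 1 and 1.53 in column 2. Over the 8 arrays the 2 Cyp2b2 probes followed each other with r of 0.989 on the same RNA, so they are not separate tests of the gene. Of all tested probes, 0.0789% passed the threshold as higher in the mixture group (9 probes) and 0.798% had non-overlapping groups with the mixture group higher. Both Cyp2b2 probes were among the former, with Cyp1a1, the classical AhR target, at 4.04 (SE 0.31). Cyp1a1 differed by less in Cy5 without the reference, 3.09 (SE 0.20).

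Without slide column in the model, the Cyp2b2 differences stayed as they were but neither passed: limma's adjusted p was 0.939 for A_64_P006590 and 0.9999 for A_44_P311324, and 0.00877% of probes (1 probe, Cyp1a1) passed. Leaving out single arrays moved the differences between 1.82 and 2.25 for A_64_P006590 and between 1.38 and 1.64 for A_44_P311324. Each probe kept its call in 3 of the 8 fits. The call of both was lost without Control replicate 8 (adjusted p 0.0851 each), mixture replicate 1 (0.0692 and 0.0573), 3 (0.124 each) or 4 (0.112 each). That of A_64_P006590 was lost without Control replicate 5 as well (0.0649), and that of A_44_P311324 without Control replicate 6 (0.0558).

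**Figure D1:**
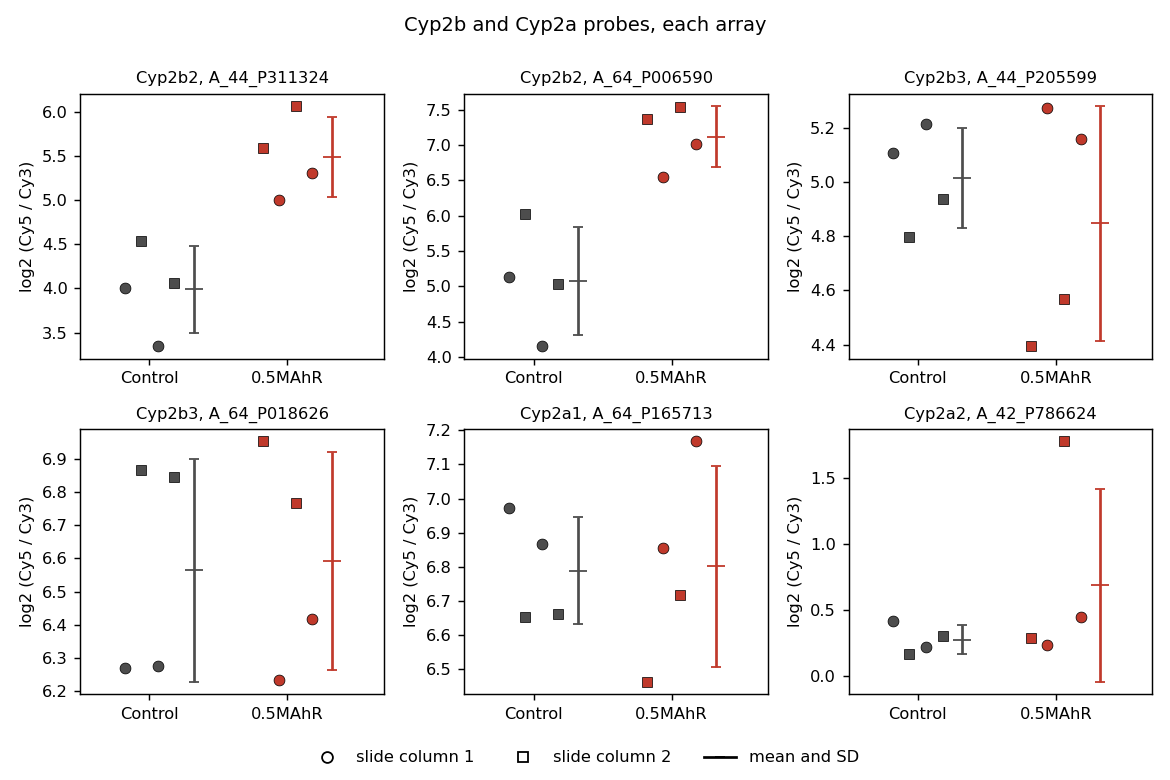
Log2 ratio of Cy5 over Cy3 (vertical axis, its own scale in each panel) of the 6 probes on each array, by group; circles are arrays of slide column 1, squares of column 2, and the bars give the mean and SD of 4 arrays. Both Cyp2b2 panels show the mixture arrays above the Control arrays, the Cyp2b3 and Cyp2a1 panels show overlapping groups, and the Cyp2a2 panel shows 1 mixture array at 1.78.

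In Cy5 alone, the liver channel without the reference, Cyp2b2 rose on both probes as well. Normalised log2 signals for A_64_P006590 averaged 9.93 ± 0.79 (SD, n = 4) on Control arrays against 12.24 ± 0.52 (SD, n = 4) on mixture arrays. The difference was 2.30 (SE 0.25) or 4.94-fold, with an adjusted p of 0.00971 in limma, and it was 2.33 in column 1 and 2.28 in column 2. For A_44_P311324 the difference was 1.69 (SE 0.19) or 3.23-fold, with an adjusted p of 0.0102, 1.58 in column 1 and 1.80 in column 2. In this channel 0.14% of probes passed as higher (16 probes), and 0.921% had non-overlapping groups with the mixture group higher. Both calls held without each single array except mixture replicate 4, where the adjusted p was 0.0577 and 0.0629. Without slide column neither probe passed, with adjusted p of 0.450 and 0.679, and 0.00877% of probes did.

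The reference signal at the Cyp2b2 probes was faint and was itself not equal between the groups. Net Cy3 at A_64_P006590 was 21.8 to 23 units on the Control arrays and 38 to 44.8 on the mixture arrays, and it was well above background on 0 of 4 Control and 4 of 4 mixture arrays. At A_44_P311324 it was so on 1 of 4 and 4 of 4. After normalisation the Cy3 signal was higher on the mixture arrays by 0.31 (SE 0.03, adjusted p = 0.0571 in limma) and 0.36 (SE 0.05, adjusted p = 0.108), and the groups did not overlap on either probe. The labels give the same reference RNA for all arrays, and in Cy3 0.00877% of probes passed as higher (1 probe, Cyp1a2) and 0.535% had non-overlapping groups with the mixture group higher. A higher Cy3 signal lowers the log ratio, and the Cy5 differences of both probes were larger than their log ratio differences. What set the Cy3 signal was not tested. With faint Cy3 signals raised to the lowest level well above background, an alternative chosen after the data were seen, the Cyp2b2 differences were 2.09 (adjusted p = 0.0322) and 1.54 (adjusted p = 0.0305).

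**Figure D2:**
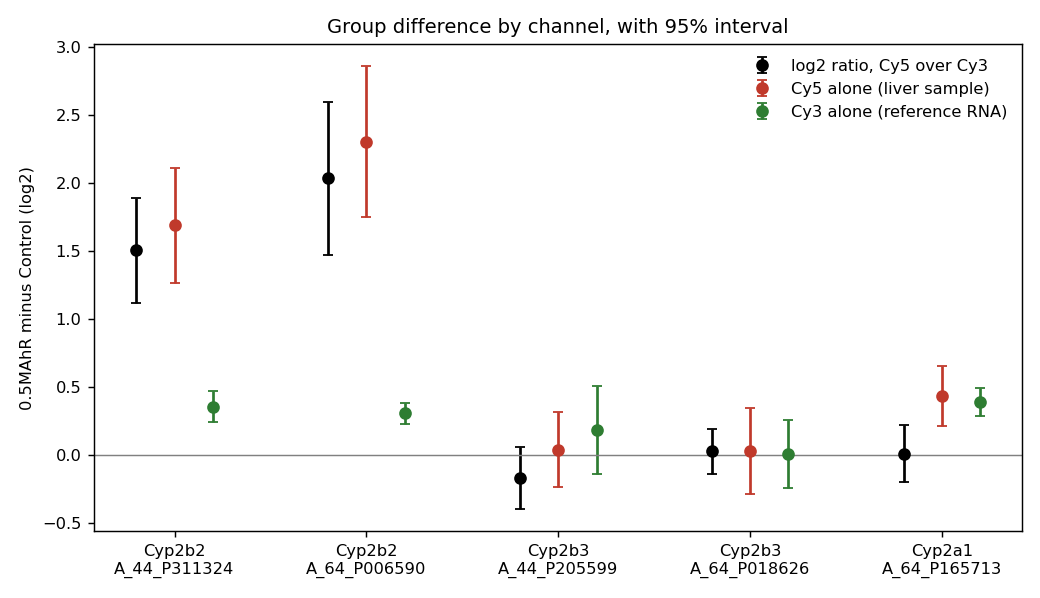
Difference of the mixture group from Control (log2, vertical axis) for the 5 tested probes, in the log ratio (black), in Cy5 alone (red) and in Cy3 alone (green); points are limma estimates with slide column fitted and bars their 95% intervals. Cyp2b2 lies at 1.51 and 2.04 in the log ratio and higher in Cy5, and Cyp2a1 lies at 0.01 in the log ratio with 0.43 in Cy5 and 0.39 in Cy3.

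Cyp2b3, the neighbour of Cyp2b2, gave no call on either probe. On its brighter probe, A_44_P205599, log2 ratios were 5.11, 4.80, 5.21 and 4.94 on the Control arrays and 4.39, 5.27, 4.57 and 5.16 on the mixture arrays. The groups overlapped, and mixture replicates 1 and 3, both of slide column 2, were the lowest of the 8. The difference was -0.17 (SE 0.10, 95% interval -0.40 to 0.06, adjusted p = 0.876 in limma), with 0.05 in column 1 and -0.39 in column 2. On A_64_P018626, which had 1 spot per array, log2 ratios were 6.27, 6.87, 6.28 and 6.84 on the Control arrays and 6.95, 6.23, 6.77 and 6.42 on the mixture arrays. These values fell by slide column and not by group, with column 2 higher by 0.56. The group difference was 0.03 (SE 0.07, 95% interval -0.13 to 0.19, adjusted p = 0.968). In A_44_P205599 column 2 was lower by 0.51, so the 2 probes of Cyp2b3 differed between the columns in opposite directions. In Cy5 alone the group differences were 0.04 (SE 0.12) and 0.03 (SE 0.14).

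Cyp2a1 was close to level between the groups in the log ratio. It read 6.97, 6.65, 6.87 and 6.66 on Control replicates 5 to 8 and 6.46, 6.86, 6.72 and 7.17 on mixture replicates 1 to 4. The groups overlapped, mixture replicate 1 being the lowest and mixture replicate 4 the highest of the 8 arrays. The difference was 0.01 (SE 0.09, 95% interval -0.20 to 0.22, adjusted p = 0.990 in limma), with 0.09 in column 1 and -0.07 in column 2, and its sign turned under other settings of the background. In Cy5 alone the log2 signal was 12.95, 12.86, 12.71 and 12.67 on the Control arrays and 13.00, 13.20, 13.21 and 13.52 on the mixture arrays. These groups did not overlap, and the difference was 0.43 (SE 0.10) or 1.35-fold, with an unadjusted p of 0.00161 and an adjusted p of 0.192 in limma. The Cy3 signal at the same probe was higher on the mixture arrays by 0.39 (SE 0.04, adjusted p = 0.0571), also with groups that did not overlap, and the difference of the log ratio was near 0.

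The Cyp2b2 response was set against that of the other genes within each array, with the brightest tested probe of each gene and 3 pairs. The log2 difference between Cyp2b2 and Cyp2b3 was larger in the mixture group by 2.20, with 2.09 in column 1 and 2.31 in column 2. The difference between Cyp2b2 and Cyp2a1 was larger by 2.02, with 2.05 and 1.99. Each had an exact two-sided permutation p of 0.0286 over 70 splits of the arrays, the smallest this design allows, and 0.0429 after Benjamini-Hochberg adjustment over the 3 pairs. With splits kept within slide columns the adjusted p was 0.0833 for both pairs, and no unadjusted p under 0.0556 was possible. For Cyp2b3 against Cyp2a1 the value was -0.18 (exact permutation p = 0.2, adjusted p = 0.2).

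Cyp2a2 was near background in these young males on all arrays but 1. Its probe, A_42_P786624, was printed in 10 spots, and its log2 ratio was 0.42, 0.16, 0.22 and 0.30 on the Control arrays and 0.28, 0.24, 1.78 and 0.45 on mixture replicates 1 to 4. The 10 spots of mixture replicate 3 had net Cy5 signals of 33.5 to 110 units, median 84, and all 10 were well above background. On the other 7 arrays the medians were 8.5 to 20.3 units, and by the majority of spots the probe was well above background on 0 of 4 Control arrays and on 1 of 4 mixture arrays. The group means were 0.27 ± 0.11 (SD, n = 4) for Control and 0.69 ± 0.73 (SD, n = 4) for the mixture arrays. Their difference of 0.41 was 0.05 without mixture replicate 3. With no Control array and 1 of the 4 mixture arrays well above background, no fold is given. The pool held 2 pups, and whether both contributed cannot be told from it.

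**Figure D3:**
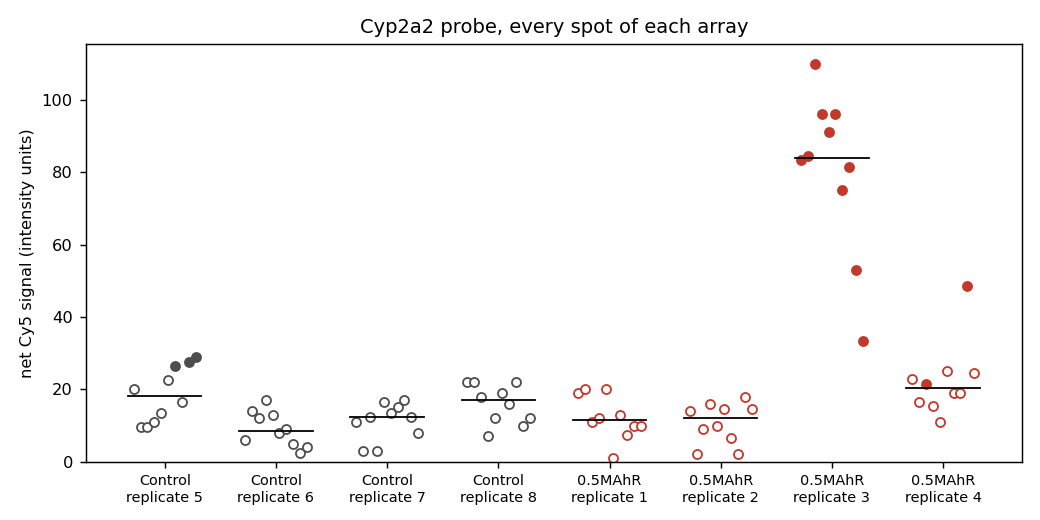
Net Cy5 signal (intensity units, vertical axis) of each of the 10 spots of the Cyp2a2 probe on each array, in black for Control and red for the mixture group; filled points were well above background and the lines are medians. The spots of mixture replicate 3 lie between 33.5 and 110 units, with a median of 84 against 8.5 to 20.3 on the other arrays.

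The other genes of the Cyp2 cluster showed no call. Of 13 listed genes, among them the genes followed here, 12 had a named probe and 7 were tested. Of the 7, 1, Cyp2b2, rose, where 0.0789% of all tested probes rose, and 0 fell. The median difference was 0.01 against -0.01 over all tested probes. Without the genes followed here 4 were tested, with 0 calls and a median of 0.07. Cyp2a3, a CYP2A gene best known from lung and nasal tissue, was 0.37, 0.41, 0.29 and 0.49 on the Control arrays and 0.92, 0.93, 1.13 and 2.02 on the mixture arrays. Its groups did not overlap, which held with the mixture group higher for 0.798% of all tested probes, and mixture replicate 4 was highest. Cyp2a3 was well above background on 0 of 4 Control and 4 of 4 mixture arrays, so it entered the test only through the group where it was higher. The counts and medians of the cluster list include it, and its values are a description only. After loess and normalisation between arrays its Cy5 level averaged 6.31 and 7.01 on the log2 scale. With Control values raised to the lowest signal well above background, the log2 difference was 0.68 or 1.60-fold. After quantile normalisation the log2 Cy5 difference was 0.54, so 1.60-fold is not a lower limit. In the log ratio Cyp2a3 differed by 0.86 (SE 0.21, adjusted p = 0.393 in limma). Cyp2s1, Cyp2f4 and Cyp2t1 differed by 0.12, 0.01 and -0.07. Cyp2b12, Cyp2b15, Cyp2b21 and Cyp2g1 were too dim to test, as was Cyp2a2.

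Among the sensors, cofactors and other targets of CAR and its relative PXR, 34 of 39 listed genes had a named probe and 28 were tested by their brightest probe. By that probe 2 rose, against 0.0789% of all tested probes, and 0 fell. The median was 0.24, with 19 differences above 0 and 9 below, where 46.9% of all tested probes were above 0. These genes were listed with earlier results of these arrays known, so their direction is no independent evidence. The figures include Cyp2c11 and Ces2h, which entered the test only through the mixture arrays. Cyb5a, the cytochrome b5 that passes electrons to P450 enzymes, rose by 0.54 (SE 0.06, adjusted p = 0.0203 in limma), from 4.49, 4.01, 4.53 and 4.01 on the Control arrays to 4.49, 5.03, 4.54 and 5.13 on the mixture arrays. Its groups overlapped over both columns and were apart within each. Akr7a3, an aldehyde reductase that detoxifies aflatoxin dialdehyde, rose by 1.28 (SE 0.17, adjusted p = 0.0426), from -0.50, -1.12, 0.03 and -0.69 to 0.18, 0.75, 0.80 and 1.12, with no overlap. Without slide column both missed the threshold (adjusted p 0.9999 each). Whether CAR, PXR or another factor set these differences was not tested.

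Cyp2c7, a retinoid-oxidising P450, missed the threshold on its brightest probe, at 1.63 (adjusted p = 0.101 in limma), and rose on 2 further probes, A_64_P000452 at 1.96 (adjusted p = 0.0426) and A_64_P066206 at 1.71 (adjusted p = 0.0304). Without the slide column these limma calls were lost, with adjusted p = 0.359 and 0.9999. Next to it by p were the microsomal epoxide hydrolase Ephx1 at 0.98 (0.140), the canalicular exporter Abcc2 at 0.42 (0.187) and the glutathione transferase Gstm2 at 0.82 (0.187). The groups did not overlap for 9 of the 28 genes with the mixture group higher, against 0.798% of all tested probes, in a list chosen with these differences in view. Of the 9, Cyp2c11 and Ces2h were well above background on 0 of 4 Control arrays and on 4 and 3 mixture arrays, so they entered the test only through the group where they were higher. In Cy5 alone 5 of the 28 rose, against 0.14% of all tested probes, with a median of 0.34. The receptors themselves showed no call: CAR (Nr1i3) differed by -0.04 on its brighter probe and by -0.34 on A_64_P109496 (SE 0.12, unadjusted p = 0.0211, adjusted p = 0.677 in limma), PXR (Nr1i2) by -0.11 and their partner Rxra by -0.02. Por, the flavoprotein reductase of the P450 system, differed by -0.06.

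**Figure D4:**
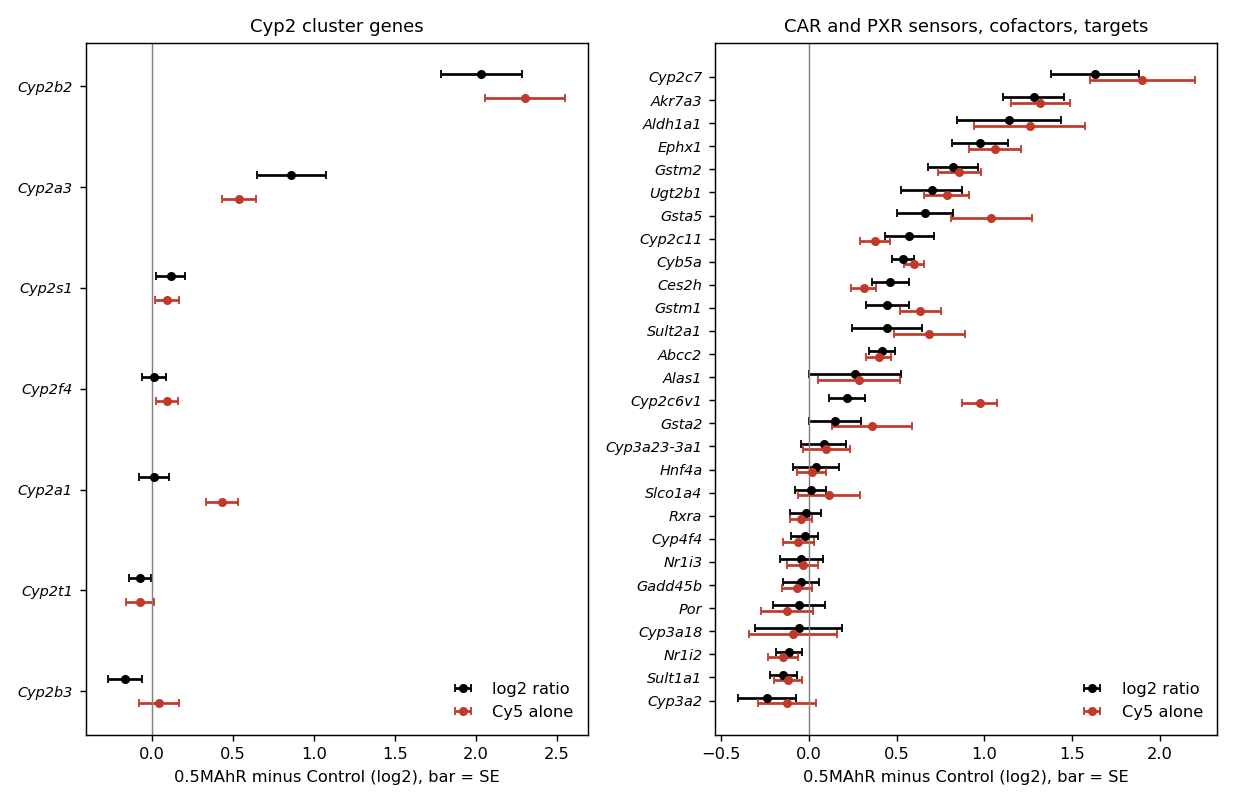
Difference of the mixture group from Control (log2, horizontal axis) for the tested genes of the Cyp2 cluster (left) and of the CAR and PXR list (right), each by its brightest tested probe, in the log ratio (black) and in Cy5 alone (red); bars are standard errors with slide column fitted. In the cluster Cyp2b2 stands at 2.04 and Cyp2a3 at 0.86 with the others between -0.17 and 0.12, and in the CAR and PXR list Cyp2c7, Akr7a3, Aldh1a1 and Ephx1 have the highest log ratio differences.

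Because CYP2B enzymes are found mostly around the central vein, genes that mark the zones of the liver lobule were listed as well. Of 10 pericentral genes 9 were tested and none passed, 7 were above 0 and the median was 0.08. Those named by their p were the ammonium transporter Rhbg at 0.51 (SE 0.16, adjusted p = 0.562 in limma), the P450 Cyp1a2 at 0.12 (SE 0.07, adjusted p = 0.862) and Axin2, a target of Wnt signalling, at -0.18 (SE 0.12, adjusted p = 0.876). In Cy5 alone Cyp1a2 passed, at 1.54 (adjusted p = 0.000143), and its Cy3 reference signal was higher on the mixture arrays by 1.38 (adjusted p = 0.00335). Whether the Cy5 rise of Cyp1a2 came with zone or with the AhR activators given to the dams was not tested. All 10 periportal genes were tested, none passed and all 10 were below 0, where 46.9% of all tested probes were above 0. Their median was -0.23. Those with the smallest p were the urea cycle enzyme Ass1 at -0.30, the aldehyde dehydrogenase Aldh1b1 at -0.25, the glutaminase Gls2 at -0.35 and the carbamoyl phosphate synthetase Cps1 at -0.35, with adjusted p of 0.424 to 0.769. Of the 8 hepatocyte markers 7 were also below 0 in the log ratio, with a median of -0.11. By Cy5 alone 5 of these 8 were above 0, and 0 of the 10 periportal genes were. The part of the pericentral or the periportal list in the Cyp2b2 difference was not tested. Both lists were chosen with earlier results of these data known, so their direction is no independent evidence.

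The genes whose log2 ratio, centred within slide columns, followed that of the brighter Cyp2b2 probe most closely over the 8 arrays were Amz2 (r = 0.960), Glrx (0.952), Rab3gap2 (0.949), Ndufaf1 (0.945) and Ccs (0.940). Their group differences were small beside the 2.04 of Cyp2b2, at 0.10, 0.29, 0.08, 0.21 and 0.30, and none of the 5 passed the threshold. These r were picked as the highest among all named genes over 8 arrays and share the group difference, so they are a description only.

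The size of the Cyp2b2 differences in the log ratio moved with the processing. With the scanner software's processed signals, which the software had background-subtracted and dye-normalised, the log ratio differences were 0.69 (adjusted p = 0.488 in limma) for A_64_P006590 and 0.21 (adjusted p = 0.75) for A_44_P311324. In Cy5 alone the processed signals gave 2.30 (adjusted p = 0.0905) and 1.78 (adjusted p = 0.0936). In Cy5, the Cyp2b2 differences thus stayed at their size with processed signals, and in the log ratio they did not.

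**Figure D5:**
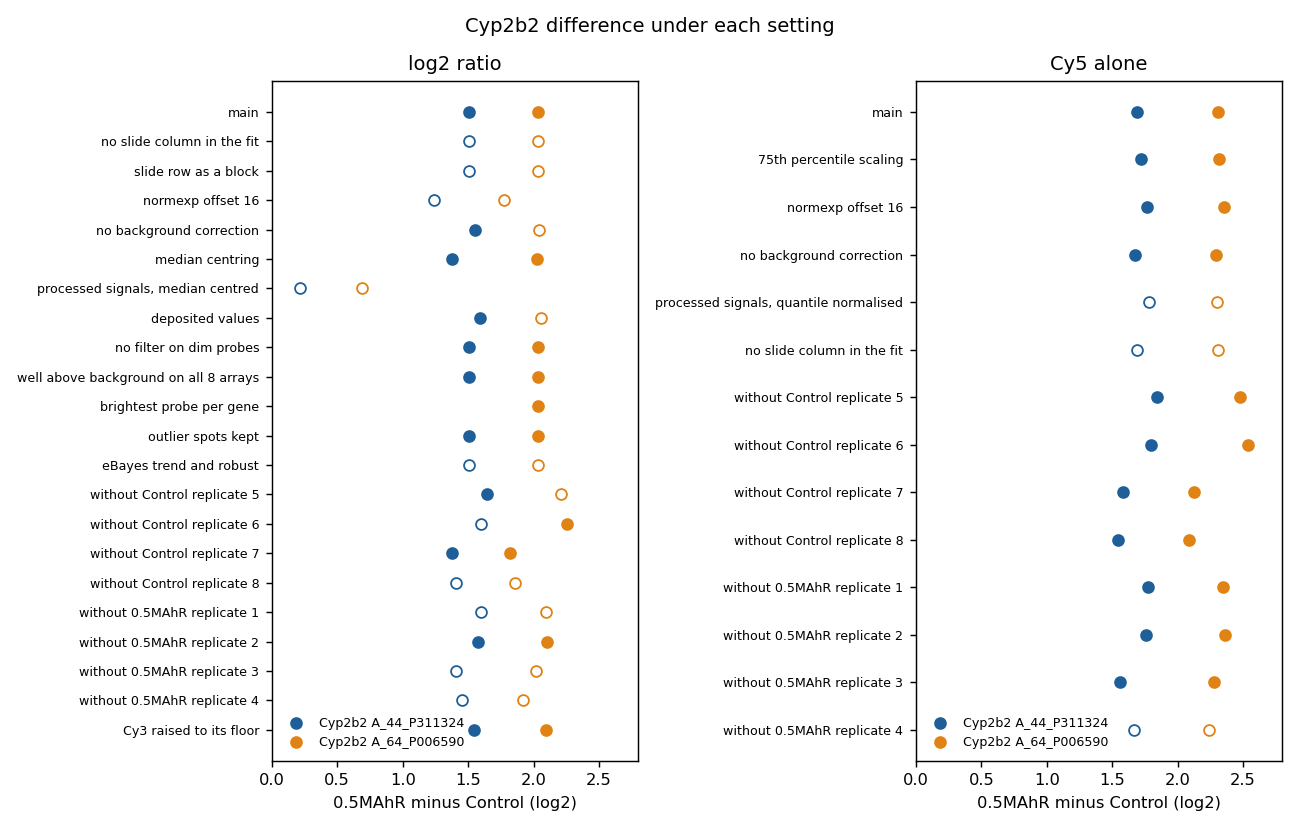
Cyp2b2 difference of the mixture group from Control (log2, horizontal axis) under each setting, in the log ratio (left) and in Cy5 alone (right), for probes A_44_P311324 (blue) and A_64_P006590 (orange); filled points had an adjusted p under 0.05 and open points did not. All points lie above 0, the log ratio falls to 0.21 and 0.69 with processed signals, and Cy5 stays between 1.54 and 2.54.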

How the data were processed

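Liver RNA pools of 4 Control and 4 mixture arrays were measured on 2-colour Agilent arrays with Cy5 for the sample and Cy3 for the reference on every array. Only a constant dye bias is thereby shared by both groups. The Cy3 signal at the Cyp1a2, Cyp2b2 and Cyp2a1 probes was higher on the mixture arrays, and what set it was not tested. Per the file headers, the deposited intensity values come from Agilent Feature Extraction 11.0.1.1. Median foreground and background signals were used, with its marks for outlying spots and for spots well above background. The authors' deposited value table holds log2 ratios, made by a method not given in the sources used here. Its columns followed loess log2 ratios without background correction (r of 0.9985 to 0.9993, slope 0.998 to 1.00), which settles scale and direction but not centring. Column medians were -0.0389 to -0.0326.

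Normexp with an offset of 50 and loess within arrays, control spots having no weight, were run in limma 3.58.1 (R 4.3.3). Each channel alone was quantile normalised. Outlier spots were dropped and each probe's remaining spots averaged. Of 30367 probes, 18005 received a symbol by matching accessions to RefSeq genes of GRCr8. The array's own header names another build, so gene coordinates are those of the promoter table only. A probe was tested if over 50% of its spots exceeded background in Cy5, by the scanner's mark, on 3 or more of the 4 arrays of a group. lmFit and eBayes were used with slide column as a covariate, two-sided, with Benjamini-Hochberg adjustment over all 11406 tested probes and a threshold of 0.05. "Rose" and "fell" are used of what passed it. The fits were also run on simulated data that held the slide column shifts. That run cannot show whether slide column belongs in the model.

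Replicates are separate pools per the labels. The Cy5 fold of Cyp2a3 compares the mixture mean with Control values raised to the lowest signal well above background. It was taken after loess and Aquantile and is open to dye bias. Named were all probes of the 4 genes, Cyp1a1, list members past the threshold with up to 4 next by p, and the 5 genes most like Cyp2b2. Of the list members so named, 1 is not reported here. The genes, the lists and slide column in the model were chosen with earlier results of these data known.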

Additional observations from a re-analysis of the deposited data

Results flagged for a closer look

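The Cyp2a2 probe stood apart on mixture replicate 3, with a log2 ratio of 1.78 and a normalised log2 Cy5 signal of 7.06. The other 3 mixture arrays had log2 ratios of 0.24 to 0.45. The gap to the next array exceeded the share of the range that Dixon's test allows for 4 samples in both measures, which are 2 views of the same spots. Of 36 groups checked 2 did so, and chance gives about 1 in 20. The Cy3 signal of the probe was not raised on that array, with net values of 11.5 to 20.5 units.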

How the results depend on the processing

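No paired analysis was possible because the groups share no replicate number in the labels. Each slide row held 1 array of each group, always in different columns, and was run as a block. Cyp2b2 was above Control in the log ratio and in Cy5 alone under every setting run. Without slide column, the log ratio gave 1 call in all, with Cyp2b2 at 2.04 (A_64_P006590) and 1.51 (A_44_P311324), and Cy5 gave 1 call, with 2.30 and 1.69. With slide row as a block there were 0 calls in limma (86 at an unadjusted p under 0.05), with 2.04 and 1.51. An offset of 16 gave 4 calls, with 1.77 (adjusted p 0.151) and 1.24 (0.0775), processed signals 0 calls in limma (871 unadjusted), with 0.69 and 0.21, the brightest probe per gene 5 calls, and a trended robust variance 2 calls, with 2.04 (0.191) and 1.51 (0.0866). A_64_P006590 also missed the threshold without background correction (2.04, adjusted p 0.0666) and in the deposited values (2.06, 0.0599). In Cy5, processed signals gave 1 call, with 2.30 and 1.78. Cyp2a1 turned to -0.073 with an offset of 16, -0.046 without background correction, -0.23 with processed signals and -0.065 in the deposited values, and the Cyp2b3 probe A_64_P018626 to -0.048 with processed signals. For the pairs, Cyp2b2 against Cyp2b3 was 2.20 with splits within columns and 2.22 without background correction, and Cyp2b2 against Cyp2a1 2.02 and 2.09, with exact permutation p adjusted to 0.0833 within columns and 0.0857 without background correction.

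Without single arrays, log ratio calls ranged from 1 to 16: 1 without mixture replicate 3 or 4, 2 without mixture replicate 1 or Control replicate 5, 6 or 8, 15 when Control replicate 7 was left out and 16 when mixture replicate 2 was. Cy5 calls ranged from 5 (without mixture replicate 4) to 18, with 7 without Control replicate 8 and 9 without Control replicate 5 or 6 or mixture replicate 3. The Cyp2b2 differences were 1.82 to 2.25 and 1.38 to 1.64 in the log ratio and 2.08 to 2.54 and 1.54 to 1.84 in Cy5. Cyp2b3 stayed between -0.23 and -0.087 (A_44_P205599) and between -0.013 and 0.070 (A_64_P018626), and Cyp2a1 between -0.066 and 0.080. In Cy5 these were -0.062 to 0.13, -0.12 to 0.13 and 0.35 to 0.49. The causes of lost calls were not tested. Signal over background kept Cyp2a2 from being tested and left the reference of Cyp2b2 near its floor.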

Other observations

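A list of 12 genes whose level in rat liver depends on sex was chosen after the Cyp2a2 values were seen. The 11 with a named probe, 8 of them tested, were looked at on mixture replicate 3. Cyp2c13, a P450 typical of males, had its highest log2 ratio of the 8 arrays there, 1.07 against 0.22 to 0.87 on the others, and net Cy5 was 44.8 against 8 to 32.5 units, but the probe was too dim to be tested. Cyp2c11, the main P450 of adult males, was at 0.61 against 0.10 to 1.35, Cyp3a2 at 9.24 against 8.51 to 9.45 and Cyp3a18, also higher in males, at 4.26 against 3.93 to 5.25, the sixth highest of the 8 arrays. Cyp2c12, typical of adult females, was at 6.19 against 4.80 to 6.69. The untested probes of Cyp4a2 and Ust5r were also highest on mixture replicate 3, at 0.10 and 0.24. Their net Cy5 there was -0.5 and 5.25 units. Sult2a1 was at 7.21 against 6.05 to 7.25 and Hsd17b2 at 5.09 against 4.74 to 5.12. Cyp2c7, by its brightest probe, was at 4.21 against 1.85 to 4.99. Srd5a1 was at 2.51 against 2.17 to 3.42 on A_44_P182431 and at 2.28 against 1.02 to 2.47 on A_44_P519871.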
